A study of Mus musculus with 6 samples.

Results

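The unfolded protein response and the integrated stress response were followed through 10 genes, taken by symbol. Hspa5, Xbp1, Dnajb9, Herpud1 and Calr stand for the chaperone arm, and Atf4, Ddit3, Trib3, Asns and Chac1 for the ATF4 arm. These are 10 of the 52459 genes in the count table, and all 10 were among the 17032 genes with enough counts to be tested. Bulk RNA-Seq was available for 6 livers, 1 per mouse, from male Alb-Cre/Cas9 F1 mice of strain C57BL6J at postnatal 8 months. At 4 to 5 weeks of age 3 of the mice received AAV8-U6-sgCtrl, a virus with a control guide RNA, by the vein (livers 5.1, 7.1 and 7.2), and the other 3 received AAV8-U6-sgPrdx2, with a guide RNA against the peroxidase gene Prdx2 (livers 1.1, 1.3 and 3.2). Both groups were injected with diethylnitrosamine (DEN, 100 mg/kg), a liver carcinogen, 3 weeks later, and from 1 week after DEN both received the fat-rich, choline-deficient diet CDAHFD for 6 months. Cre was driven by the albumin promoter, which is active in hepatocytes, so Cas9 was directed to these cells. Hepatocytes that the virus did not reach and the other cells of the liver were not targets of the editing, and the share of edited cells was not measured here. The question was whether the RNA of these stress genes differed between sgPrdx2 and sgCtrl livers, and whether the chaperone arm and the ATF4 arm differed alike.

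The unfolded protein response is set off when unfolded proteins gather in the endoplasmic reticulum (ER), and has 3 sensors. ATF6 and IRE1, the latter through splicing of the Xbp1 RNA, raise chaperones and degradation factors of the ER. PERK phosphorylates the initiation factor eIF2alpha, which slows translation in general but favours translation of the ATF4 protein. Other kinases that sense double-stranded RNA, haem shortage or amino acid shortage reach eIF2alpha as well, and this wider circuit is called the integrated stress response. ATF4 then turns on genes of amino acid uptake and synthesis, of redox balance and, with CHOP (encoded by Ddit3), of cell death. The hepatocyte secretes plasma proteins in bulk, and both pathways are known to be engaged in fatty liver disease. Counts per gene measure neither the splicing of Xbp1 nor the amount of ATF4 protein.

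The libraries held 37462102 to 56865293 counts on genes, so that 3 counts, the smallest number taken as detected, stood for 0.0555 to 0.0921 CPM (counts scaled to library size, with TMM normalization). Counts of any pair of livers differed beyond sampling noise, with a chi-square per degree of freedom of 31.9 or more. Prdx2 itself was at 109, 117 and 132 CPM in sgCtrl and at 99.0, 112 and 149 CPM in sgPrdx2 livers (log2 fold change 0.01, SE 0.18, adjusted p = 0.983). Of its stretches of 50 bases, 12.04% also occur in other genes, so part of its reads could have been counted elsewhere. A guide RNA leaves small insertions or deletions, which need not change the RNA level, so these counts did not check the labels. Of 9 hepatocyte markers tested, 5 were called higher in sgPrdx2 livers by edgeR, which called 1.79% of all genes tested higher. All 9 were above 0, and their summed level was 76604 to 84081 CPM in sgCtrl and 132601 to 177145 CPM in sgPrdx2 livers. The markers of macrophages, stellate cells and fibroblasts, endothelium and cholangiocytes had median log2 fold changes of -0.51, -0.49, -0.46 and -0.41, and those of plasma and B cells of 0.44. In liver sgPrdx2 3.2 short transcripts stood higher and long ones lower than in the other livers: the median deviation of the 25% of genes with the shortest transcripts minus that of the 25% with the longest was 0.59 on the log2 scale, against -0.29 to -0.02 in the other 5.

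The promoters of the members hold known binding motifs of both arms. Those with a match before RefSeq's start are shown because the members and target genes described below can be read against them. The sequences are RefSeq's on GRCm38.p6, and windows ran from 250 bases before to 50 bases after each RefSeq start. Bases are counted from RefSeq's start throughout. The annotation GENCODE M21 starts Hspa5 and Asns further upstream. The matches printed for both therefore lie inside the gene positions given below, which are GENCODE's. All 10 members had a window. Both strands were searched for 4 motifs. The ER stress response element (ERSE), bound by ATF6 with NF-Y, was searched as CCAAT and CCACG separated by 9 bases, and 0.119% of 32851 windows of all genes held it. ERSE-II was searched as ATTGG and CCACG separated by 1 base and was found in 0.0365% of windows. The XBP1 and ATF6 core TGACGTGG was found in 0.676% of windows and in that of no member. The C/EBP-ATF response element (CARE), bound by ATF4 with a C/EBP partner, was searched as TGATGNAA and was found in 3.97% of windows. None of these motifs contains another, but ERSE and ERSE-II share the letters CCACG. In the chaperone arm Hspa5 and Calr held ERSE, and Herpud1 held ERSE-II and CARE. In the lines that follow, each runs 5′ to 3′ on the strand of its gene, and the capitals mark the match.
Hspa5, chr2:34771970-34772089, + strand, bases 120 to 1 before the start: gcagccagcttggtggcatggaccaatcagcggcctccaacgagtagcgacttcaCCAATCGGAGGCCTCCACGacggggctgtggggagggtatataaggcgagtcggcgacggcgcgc
Calr, chr8:84847012-84847131, - strand, bases 200 to 81 before the start, ERSE on the opposite strand: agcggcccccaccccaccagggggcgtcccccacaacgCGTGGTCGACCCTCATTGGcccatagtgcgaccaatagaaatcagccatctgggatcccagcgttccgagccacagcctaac
Herpud1, chr8:94386309-94386428, + strand, bases 120 to 1 before the start, first CARE on the opposite strand and then ERSE-II: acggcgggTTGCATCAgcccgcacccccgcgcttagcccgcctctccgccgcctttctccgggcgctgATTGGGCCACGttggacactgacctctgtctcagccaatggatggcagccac

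In the ATF4 arm CARE was matched in the windows of Asns, Chac1 and Trib3. In Trib3 the match lay at bases 14 to 21 after RefSeq's start, but upstream of the gene as GENCODE M21 places it. The window of Slc7a11, the cystine transporter gene that recurs below, held 2 matches. The windows of Xbp1, Dnajb9, Atf4 and Ddit3 held none of the 4 motifs. Neither did those of Slc7a1, Mthfd2, Aldh18a1, Shmt2 and Psat1, further target genes described below. Such an absence says only that these letters were not in the windows of 300 bases.
Asns, chr6:7693210-7693329, - strand, bases 120 to 1 before the start: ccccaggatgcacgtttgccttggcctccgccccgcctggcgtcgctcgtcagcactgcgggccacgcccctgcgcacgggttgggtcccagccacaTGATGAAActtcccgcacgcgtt
Chac1, chr2:119351002-119351121, + strand, bases 240 to 121 before the start, CARE on the opposite strand: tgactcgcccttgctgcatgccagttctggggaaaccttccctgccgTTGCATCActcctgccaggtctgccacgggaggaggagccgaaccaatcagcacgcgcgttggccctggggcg
Slc7a11, chr3:50443614-50443733, - strand, bases 120 to 1 before the start, CARE on the gene's strand and then on the opposite one: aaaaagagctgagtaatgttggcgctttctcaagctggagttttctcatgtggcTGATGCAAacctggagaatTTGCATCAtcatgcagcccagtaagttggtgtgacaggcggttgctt

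None of the 10 members differed between sgPrdx2 and sgCtrl livers by the test across all genes. By edgeR's quasi-likelihood test 0 of 10 had a Benjamini-Hochberg adjusted p under 0.05, against 567 of all 17032 genes tested (3.33%), of which 305 were higher (1.79%) and 262 lower (1.54%) in sgPrdx2 livers. None of the 10 had an unadjusted p under 0.05 either, against 24.9% of all genes tested. DESeq2 called 0 of 10, with 1 unadjusted p under 0.05, and called 2048 of the 15329 genes to which it gave an adjusted p (13.4%), 7.58% higher and 5.78% lower. In none of the 10 did the 3 sgPrdx2 livers lie apart from the 3 sgCtrl livers, while 34.2% of all genes tested had groups without overlap. These are bulk livers, in which fewer cells of a type and less RNA per cell cannot be told apart.

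In the chaperone arm all 5 genes overlapped between the groups, with the log2 fold change of Hspa5 below 0 and those of the other 4 above it. Hspa5 (chr2:34771970-34777547, + strand; gene positions are those of GENCODE M21 on GRCm38) encodes BiP, the main chaperone of the ER lumen and the brake on its sensors. It was at 476, 781 and 1053 CPM in sgCtrl livers 5.1, 7.1 and 7.2 and at 624, 650 and 662 CPM in sgPrdx2 livers 1.1, 1.3 and 3.2. All 3 sgPrdx2 livers thus lay inside the range of the sgCtrl livers, between liver 5.1 and liver 7.1. The highest sgCtrl liver exceeded the lowest 2.21-fold, and the highest sgPrdx2 liver the lowest 1.06-fold. The log2 fold change was -0.25 (SE 0.27, adjusted p = 0.579), with a 95% interval of the fold of 0.548 to 1.28. Without liver sgCtrl 7.2 the log2 fold change was 0.04.

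Calr (chr8:84841850-84846934, - strand) encodes calreticulin, the lectin chaperone that holds newly glycosylated proteins and binds calcium. Its levels were 668, 1024 and 1145 CPM in sgCtrl livers, and 976, 972 and 1075 CPM in sgPrdx2 livers. As with Hspa5, liver sgCtrl 5.1 was lowest, liver sgCtrl 7.2 highest, and the sgPrdx2 livers lay between them. The log2 fold change was 0.09 (SE 0.21, adjusted p = 0.810), and the 95% interval of the fold ran from 0.759 to 1.497. Both genes hold ERSE, as shown in their promoters above.

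Xbp1 (chr11:5520659-5525893, + strand), the transcription factor whose RNA IRE1 splices, was at 231, 286 and 275 CPM in sgCtrl and at 276, 328 and 382 CPM in sgPrdx2 livers. The groups touched at liver sgPrdx2 1.1, which lay between livers 7.2 and 7.1 of sgCtrl. Its unadjusted p of 0.0984 was the lowest of the members after that of Trib3, with a log2 fold change of 0.32 (SE 0.17) and an adjusted p of 0.285 (edgeR). The 95% interval of the fold was 0.950 to 1.63.

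Herpud1 (chr8:94386438-94395377, + strand), an ER membrane protein that gathers the degradation machinery, was at 268, 170 and 210 CPM in sgCtrl and at 277, 252 and 232 CPM in sgPrdx2 livers. Here liver sgCtrl 5.1, the lowest for Hspa5 and Calr, was the highest of its group. The fold was 1.18 (95% interval 0.870 to 1.59). Dnajb9 (chr12:44205559-44210326, - strand), the co-chaperone ERdj4 that hands IRE1 back to BiP, was at 36.0, 42.4 and 47.2 CPM in sgCtrl and at 45.6, 42.9 and 40.0 CPM in sgPrdx2 livers. Its 95% interval was the narrowest of the 10 members, from 0.823-fold to 1.27-fold around a fold of 1.02. Of its stretches of 50 bases, 5.50% also occur in Gm6568, so a small part of its reads could have been counted elsewhere.

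In the ATF4 arm the spread between livers was wide for Ddit3, Trib3, Asns and Chac1 but not for Atf4 itself. Atf4 (chr15:80255184-80257541, + strand), whose protein drives the integrated stress response, was at 125, 119 and 162 CPM in sgCtrl and at 110, 160 and 110 CPM in sgPrdx2 livers. In each group 1 liver, sgCtrl 7.2 and sgPrdx2 1.3, stood at the top and the other two close together below it. The fold was 0.937 (95% interval 0.680 to 1.29).

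Ddit3 (chr10:127290774-127296288, + strand) encodes CHOP, the transcription factor linked to death under lasting ER stress. Its levels were 25.6, 26.8 and 85.5 CPM in sgCtrl and 15.0, 31.0 and 49.7 CPM in sgPrdx2 livers. Liver sgCtrl 7.2 was above all the others and liver sgPrdx2 1.1 below them. The log2 fold change of -0.53 (SE 0.55, adjusted p = 0.579) became 0.28 without liver sgCtrl 7.2. Ddit3 shares 1.11% of its stretches of 50 bases with Mars, the neighbouring tRNA synthetase gene.

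Trib3 (chr2:152337422-152344032, - strand), a pseudokinase that is induced by ATF4 and CHOP and dampens them and AKT, had the largest change of the 10 members. Its levels were 38.1, 71.0 and 132 CPM in sgCtrl and 35.6, 57.7 and 33.6 CPM in sgPrdx2 livers. Livers 1.1 and 3.2 of sgPrdx2 lay below every sgCtrl liver, and liver 1.3 between the lowest and the middle one. The fold was 0.526, with a 95% interval of 0.267 to 1.04 and an adjusted p of 0.223 by edgeR and 0.0965 by DESeq2. The log2 fold change was -0.93 (SE 0.42), and -0.36 without liver sgCtrl 7.2.

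Asns (chr6:7675169-7693254, - strand), which makes asparagine, was at 13.0, 8.27 and 18.5 CPM in sgCtrl and at 2.03, 15.1 and 20.0 CPM in sgPrdx2 livers. The lowest and the highest of the 6 livers were both sgPrdx2 livers, 1.1 and 3.2, which differed 9.84-fold. Its interval was accordingly wide, from 0.319-fold to 2.70-fold around 0.928. Chac1 (chr2:119351229-119354381, + strand), which breaks down glutathione, was the lowest member, at 1.60, 4.14 and 6.64 CPM in sgCtrl and at 3.44, 8.32 and 2.30 CPM in sgPrdx2 livers, from 70 to 450 counts. Its fold was 1.14 (95% interval 0.453 to 2.88). For Asns and Chac1 these intervals reach beyond a doubling and beyond a halving, so changes of that size were not excluded with 3 livers a group. The intervals of Ddit3 (0.285-fold to 1.68-fold) and Trib3 (0.267-fold to 1.04-fold) reach beyond a halving as well.

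**Figure D1:**
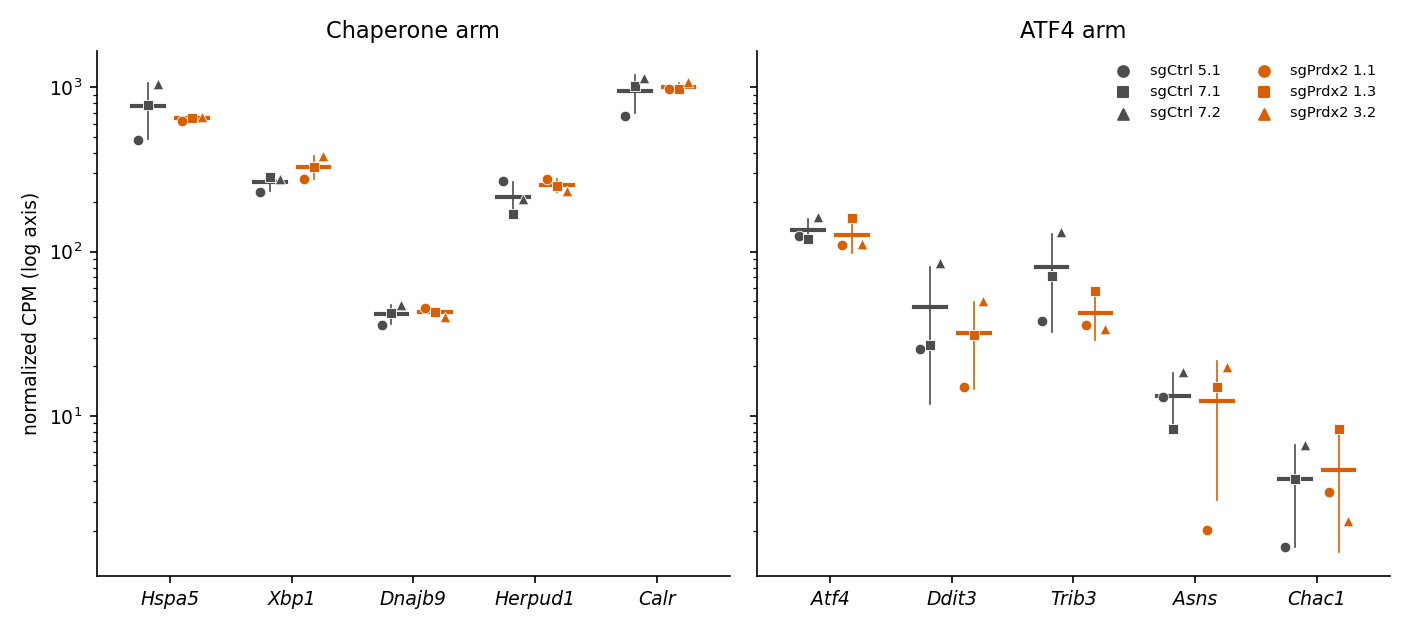
Normalized CPM (log axis) of the 5 chaperone arm genes (left) and the 5 ATF4 arm genes (right) in each liver. Thick bars are group means and thin lines 1 SD over 3 livers, drawn down to the lowest liver where the mean minus 1 SD is below 0. The groups overlap for all 10 genes, and the points of Ddit3, Trib3, Asns and Chac1 are spread more widely than those of the chaperone arm.

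The same picture held for the spread itself. The biological coefficient of variation, edgeR's estimate of the spread between livers of a group, was 0.144 to 0.245 in the chaperone arm and 0.195 for Atf4. The single common value that edgeR fits to all genes was 0.213. From 14.6% (Dnajb9) to 76.0% (Hspa5) of all genes tested had a lower coefficient than the chaperone genes, and 53.0% a lower one than Atf4. The coefficient was 0.363 for Trib3, 0.465 for Ddit3, 0.494 for Chac1 and 0.562 for Asns, and 94.4% to 99.0% of all genes tested had a lower one. Within the sgCtrl group the highest liver exceeded the lowest 1.36-fold for Atf4, 3.34-fold for Ddit3 and 3.47-fold for Trib3. The RNA of these targets thus varied over a wider range than the RNA of Atf4.

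**Figure D2:**
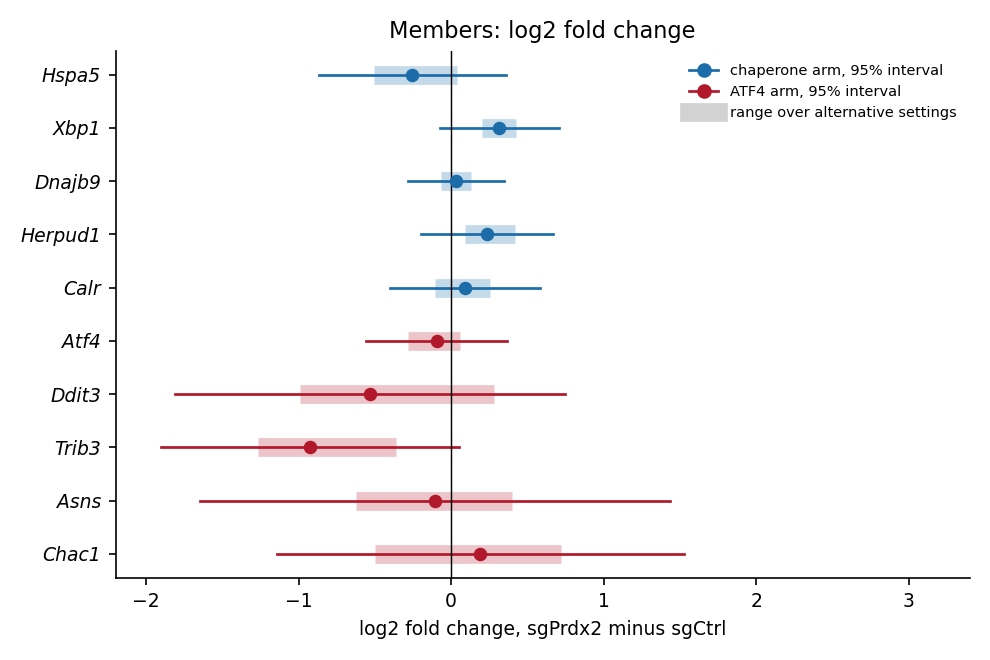
Log2 fold change (sgPrdx2 minus sgCtrl) of each member with its 95% interval (lines) and the range over 14 alternative settings (shaded bars), in which total-count and housekeeping scaling are taken relative to the -0.37 by which they moved the median of all genes. All 10 intervals include 0, and those of Ddit3, Trib3, Asns and Chac1 are the widest.

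Set against each other, the arms differed by less than the spread between livers. The mean log2 CPM of the 5 chaperone genes was 7.879, 8.121 and 8.320 in sgCtrl and 8.195, 8.211 and 8.244 in sgPrdx2 livers. That of the 5 ATF4 arm genes was 4.35, 4.64 and 5.58 in sgCtrl and 3.85, 5.05 and 4.68 in sgPrdx2 livers. The chaperone mean was 8.11 ± 0.22 (SD, n = 3) in sgCtrl and 8.22 ± 0.03 in sgPrdx2 livers, and the ATF4 mean was 4.86 ± 0.64 and 4.53 ± 0.62. The sgPrdx2 livers were close to one another in the chaperone mean and as scattered as the sgCtrl livers in the ATF4 mean.

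The difference between the arms, chaperone minus ATF4, was 3.53, 3.48 and 2.74 in sgCtrl and 4.35, 3.16 and 3.57 in sgPrdx2 livers. The group means were 3.25 ± 0.44 and 3.69 ± 0.61 (SD, n = 3), a difference of 0.44 on the log2 scale with overlapping livers. As a score over chosen members it was given no test. It was 0.19 without liver sgCtrl 7.2 and 0.11 without liver sgPrdx2 1.1, and 0.87 when the median of the members was used in place of their mean. The median log2 fold change was 0.09 over the chaperone arm and -0.11 over the ATF4 arm, beside -0.02 over all genes tested.

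Per kilobase of exon, the scale on which levels of different genes can be compared, Calr was the most abundant member in both groups, at 328 ± 86.1 CPM per kb in sgCtrl and 350 ± 20.2 CPM per kb in sgPrdx2 livers. Hspa5 followed, below Calr in every liver, at 182 ± 68.3 and 153 ± 4.55 CPM per kb. Herpud1 (92.4 ± 21.2 and 109 ± 9.64) and Xbp1 (81.3 ± 8.93 and 101 ± 16.2) did not differ from each other beyond their spread in either group. Atf4 was next, at 57.4 ± 9.89 and 53.8 ± 12.3 CPM per kb. Trib3, Ddit3 and Dnajb9 overlapped at 16.4 to 37.9 CPM per kb on average, and Asns and Chac1 were lowest, at 4.85 ± 1.87 and 2.52 ± 1.54 CPM per kb in sgCtrl livers.

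Of the 3 sensors named above, DESeq2 called IRE1 (Ern1) lower but not ATF6 (Atf6) or PERK (Eif2ak3), and edgeR called none. Of 12 genes for stress sensors and their processing, 0 were called by edgeR and 3 had an unadjusted p under 0.05, near the share of all genes tested. DESeq2 called 1 higher and 2 lower, against 7.58% and 5.78% of its genes. Their median log2 fold change was -0.16, with 10 of 12 below 0. Ern1, which encodes IRE1alpha, was at 48.6, 74.6 and 65.6 CPM in sgCtrl and at 39.1, 48.8 and 29.4 CPM in sgPrdx2 livers (log2 fold change -0.69, SE 0.22, adjusted p = 0.120 by edgeR and 0.0434 by DESeq2). Livers 5.1 and 1.3 met at almost the same level, and the other sgPrdx2 livers lay below. Eif2ak3, which encodes PERK, was at 21.9, 41.4 and 33.4 CPM in sgCtrl and at 30.3, 31.0 and 19.4 CPM in sgPrdx2 livers, and Atf6 at 64.1, 86.3 and 85.3 CPM and at 68.1, 67.3 and 51.6 CPM. Both overlapped between the groups, with log2 fold changes of -0.26 (SE 0.26) and -0.33 (SE 0.17).

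Creb3l3, which encodes the liver's own ER-anchored transcription factor CREBH, was at 305, 260 and 278 CPM in sgCtrl and at 391, 396 and 632 CPM in sgPrdx2 livers. Every sgPrdx2 liver was above every sgCtrl liver (log2 fold change 0.75, SE 0.21, adjusted p = 0.0891 by edgeR and 0.00929 by DESeq2). Eif2ak2, the kinase PKR that senses double-stranded RNA, was at 30.04, 21.6 and 25.2 CPM in sgCtrl and at 19.7, 16.2 and 12.4 CPM in sgPrdx2 livers, again without overlap (log2 fold change -0.67, SE 0.20, adjusted p = 0.0967 and 0.0325). Eif2ak1, the haem-sensing kinase, had a log2 fold change of 0.07 (SE 0.11).

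The other ER chaperones and folding enzymes were not called by edgeR either. Of 22 genes 0 were called by edgeR, 4 had an unadjusted p under 0.05, all higher in sgPrdx2 livers (13.0% of all genes tested were higher at that threshold), and DESeq2 called 1, Pdia5. Their median log2 fold change was 0.09, with 14 above 0 and 8 below. This protein disulfide isomerase gene was at 38.8, 58.5 and 55.4 CPM in sgCtrl and at 73.0, 71.3 and 98.6 CPM in sgPrdx2 livers (log2 fold change 0.67, SE 0.20, adjusted p = 0.101 by edgeR and 0.0239 by DESeq2). Its groups did not overlap, and liver sgPrdx2 3.2 was the highest. Sil1, the exchange factor of BiP, had a log2 fold change of 0.54 (SE 0.20), and Ero1l, the oxidase that recharges disulfide isomerases, and the prolyl isomerase gene Fkbp14 had log2 fold changes of -0.23 (SE 0.13) and -0.19 (SE 0.15).

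Of 25 genes of ER-associated degradation and of translocation into the ER, 0 were called by edgeR, 1 had an unadjusted p under 0.05 and DESeq2 called 1. The median log2 fold change was 0.17, with 18 above 0. Derl2, part of the channel for proteins leaving the ER, was at 64.3, 78.6 and 74.2 CPM in sgCtrl and at 94.3, 91.2 and 105 CPM in sgPrdx2 livers (log2 fold change 0.42, SE 0.14, adjusted p = 0.116 by edgeR and 0.0451 by DESeq2). All 3 sgPrdx2 livers were above all sgCtrl livers. Edem2, which trims glycans of misfolded proteins, had a log2 fold change of 0.41 (SE 0.20) and its relative Edem3 one of -0.52 (SE 0.29), while Ube2g2, a ubiquitin-conjugating enzyme, had one of -0.25 (SE 0.12). Over these 25 genes and the 22 chaperones together, 7 of 47 had groups without overlap (14.9%, against 34.2% of all genes tested).

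The calls were found among further target genes of ATF4, not among the members. The lists "other ATF4 and CHOP target genes" (22 genes) and "ATF4-driven amino acid and one-carbon synthesis" (11 genes) together had 4 of 33 genes called lower in sgPrdx2 livers (12.1%, against 1.54% of all genes tested) and 1 called higher (against 1.79%). Of the 33, 23 were below 0 and the median log2 fold change was -0.33. In 12 of 33 genes every sgPrdx2 liver lay below every sgCtrl liver (36.4%, against 17.5% of all genes tested). At an unadjusted p under 0.05, 13 were lower and 2 higher, against 11.9% and 13.0% of all genes tested. DESeq2 called 8 lower and 2 higher, against 5.78% and 7.58% of its genes. Both lists were chosen with earlier results of these data known, so setting their shares against those of all genes is no test. The summed levels of the first list were 1134 to 1874 CPM in sgCtrl and 1033 to 1524 CPM in sgPrdx2 livers, and those of the second 633 to 897 CPM and 941 to 1087 CPM.

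A pair of amino acid transporters fell. Slc7a1 carries arginine and lysine into cells, and it was at 8.93, 8.21 and 7.34 CPM in sgCtrl and at 3.46, 4.75 and 3.13 CPM in sgPrdx2 livers (log2 fold change -1.10, SE 0.20, adjusted p = 0.0409). Slc7a11 imports cystine for glutathione synthesis in exchange for glutamate, and its promoter with 2 CARE matches is printed above. It was at 9.46, 5.72 and 4.66 CPM in sgCtrl and at 2.37, 2.77 and 2.83 CPM in sgPrdx2 livers (log2 fold change -1.31, SE 0.28, adjusted p = 0.0491). For both genes the highest sgPrdx2 liver was below the lowest sgCtrl liver. After a correction for transcript length and GC content the log2 fold change of Slc7a11 was -1.03, with an adjusted p of 0.0879.

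Enzymes of proline and of mitochondrial one-carbon metabolism split in direction. Aldh18a1, the first enzyme of proline synthesis from glutamate, was at 11.5, 11.1 and 15.0 CPM in sgCtrl and at 5.90, 6.34 and 6.24 CPM in sgPrdx2 livers (log2 fold change -1.02, SE 0.16, adjusted p = 0.0358). Mthfd2, a mitochondrial folate enzyme, was at 6.88, 8.14 and 10.01 CPM in sgCtrl and at 3.03, 4.83 and 3.81 CPM in sgPrdx2 livers (log2 fold change -1.10, SE 0.23, adjusted p = 0.0471). Both fell in all 3 sgPrdx2 livers below the lowest sgCtrl liver. Shmt2, which feeds serine into the same mitochondrial pathway, rose, from 153, 192 and 181 CPM in sgCtrl to 299, 268 and 368 CPM in sgPrdx2 livers (log2 fold change 0.83, SE 0.17, adjusted p = 0.0466). The 4 genes called lower were at or below 15.0 CPM in every liver, while Shmt2 was at or above 153 CPM. With scaling by total counts the adjusted p of Shmt2 was 0.0554.

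**Figure D3:**
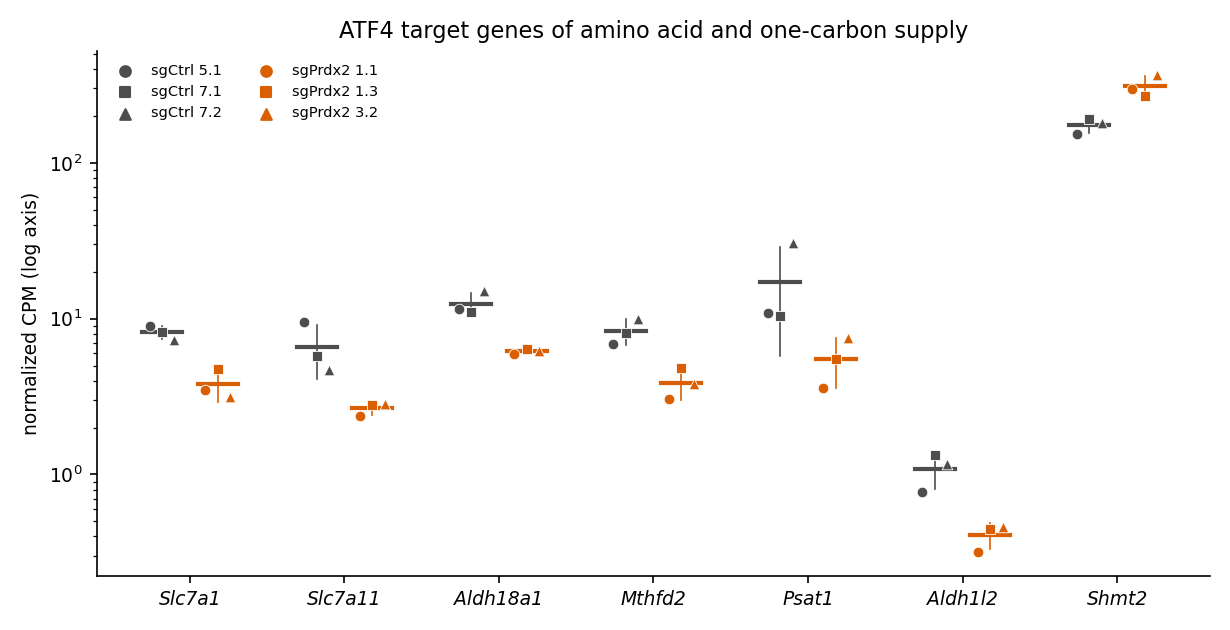
Normalized CPM (log axis) in each liver of ATF4 target genes for amino acid transport and synthesis and for one-carbon metabolism. Thick bars are group means and thin lines 1 SD over 3 livers. In each gene shown the groups do not overlap, and only Shmt2 is higher in sgPrdx2 livers. Psat1 and Aldh1l2 did not pass the test and were added after their values were seen.

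Others of these lists moved without passing the edgeR test, and those named in this paragraph up to Nupr1 were chosen after their values were seen. Psat1, an enzyme of serine synthesis, was at 10.9, 10.4 and 30.4 CPM in sgCtrl and at 3.58, 5.55 and 7.49 CPM in sgPrdx2 livers (log2 fold change -1.64, SE 0.46, adjusted p = 0.0868), and its log2 fold change was -0.94 without liver sgCtrl 7.2. Aldh1l2, another mitochondrial folate enzyme, was at 0.777, 1.33 and 1.16 CPM and at 0.319, 0.444 and 0.461 CPM (log2 fold change -1.42, adjusted p = 0.0541). It had only 14 to 61 counts per liver, and 13.57% of its stretches of 50 bases also occur in other genes. Slc3a2, the chain that Slc7a11 pairs with at the membrane, was at 136, 116 and 162 CPM in sgCtrl and at 78.9, 87.4 and 102 CPM in sgPrdx2 livers (log2 fold change -0.63, adjusted p = 0.0804). These and the transcription factor gene Atf3 (log2 fold change -0.87, adjusted p = 0.0587) had groups without overlap. Nupr1, a stress-induced chromatin protein gene, stood at -1.37 on the log2 scale (adjusted p = 0.194), and at -0.44 without liver sgCtrl 7.2. DESeq2 called Psat1 (adjusted p = 0.00214), Aldh1l2 (0.0104), Slc3a2 (0.0130) and Atf3 (0.00265) lower.

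On the other side of 0 stood Cebpb, a partner of ATF4 on CARE, at 22.8, 27.8 and 31.4 CPM in sgCtrl and at 32.5, 43.0 and 43.5 CPM in sgPrdx2 livers (log2 fold change 0.54, SE 0.17, adjusted p = 0.111 by edgeR and 0.0492 by DESeq2). Cth, which makes cysteine from cystathionine, stood at 0.82 on the log2 scale (SE 0.36, adjusted p = 0.209), and Got1, the cytosolic aspartate transaminase, at 0.66 (SE 0.43). The groups of both overlapped. With 1 liver left out in turn Cth ranged from 0.52 (without sgCtrl 5.1) to 1.16 (without sgCtrl 7.2) and Got1 from 0.31 (without sgPrdx2 1.3) to 1.24 (without sgCtrl 7.2).

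The calls among these 33 genes were lost with any 1 of 4 livers left out. Without liver sgCtrl 5.1, sgCtrl 7.2, sgPrdx2 1.1 or sgPrdx2 1.3, edgeR called 0 genes of the whole table, with 3114 to 3993 at an unadjusted p under 0.05, and so 0 of the 33, with 8 to 12 of them lower at an unadjusted p under 0.05. Without sgCtrl 7.1 it called 1 of the 33 lower (Aldh18a1) and without sgPrdx2 3.2 it called 2 (Aldh18a1 and Slc7a1). The log2 fold changes of the 5 called genes kept their sign in each of these fits, from -1.29 to -0.98 for Slc7a1 and from -1.51 to -0.97 for Slc7a11. They ran from -1.10 to -0.87 for Aldh18a1, from -1.27 to -0.95 for Mthfd2 and from 0.71 to 0.95 for Shmt2.

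Markers of macrophages, stellate cells and fibroblasts, endothelium and cholangiocytes lay mostly on the same side of 0 as the 4 genes called lower, and those of plasma and B cells mostly on the other. Summed levels were 3385 to 3854 CPM in sgCtrl and 2341 to 3157 CPM in sgPrdx2 livers for 10 macrophage markers (10 below 0, 1 of them called, Mpeg1). For 10 stellate cell and fibroblast markers they were 2300 to 2659 CPM and 1687 to 1770 CPM (8 below 0, 0 called by edgeR, 6 at an unadjusted p under 0.05, 3 called by DESeq2). For 10 endothelial markers they were 411 to 428 CPM and 320 to 394 CPM (9 below 0, 1 called, Pecam1), and for 8 cholangiocyte markers 1693 to 1916 CPM and 1269 to 1453 CPM (7 below 0, 1 called, Cldn4). At an unadjusted p under 0.05, 5 macrophage, 5 endothelial and 4 cholangiocyte markers were lower, and DESeq2 called 3, 3 and 2 lower. For 9 plasma and B cell markers tested the summed levels were 223 to 253 CPM and 286 to 431 CPM (7 above 0, 0 called by edgeR, 2 at an unadjusted p under 0.05, 1 called by DESeq2). Sdc1 was the most abundant of these in every liver, at 109 to 156 CPM in sgCtrl and 138 to 199 CPM in sgPrdx2 livers, with overlap. Ighm and Igkc were highest in liver sgPrdx2 1.3, at 124 and 102 CPM. The log2 fold changes of Cd79a and Ms4a1 were below 0. Over all genes tested, edgeR called 1.54% lower and 1.79% higher. At an unadjusted p under 0.05, 11.9% were lower and 13.0% higher, and DESeq2 called 5.78% of its genes lower and 7.58% higher. The part that these cell types had in the levels of the ATF4 targets was not tested. Among the hepatocyte markers Alb was at 58815 to 62569 CPM in sgCtrl and 97610 to 128017 CPM in sgPrdx2 livers, on the side of Shmt2.

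The cytosolic aminoacyl-tRNA synthetases, which ATF4 is also known to raise, had 0 of 12 genes called by edgeR or by DESeq2, with 1 at an unadjusted p under 0.05, a share below that of all genes tested, and a median log2 fold change of -0.06. Iars was at 47.4, 54.6 and 54.5 CPM in sgCtrl and at 41.5, 40.3 and 40.5 CPM in sgPrdx2 livers (log2 fold change -0.35, SE 0.12, adjusted p = 0.119), without overlap. Mars had a log2 fold change of 0.28 (SE 0.14), Cars of 0.16 (SE 0.12) and Nars of -0.25 (SE 0.14).

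**Figure D4:**
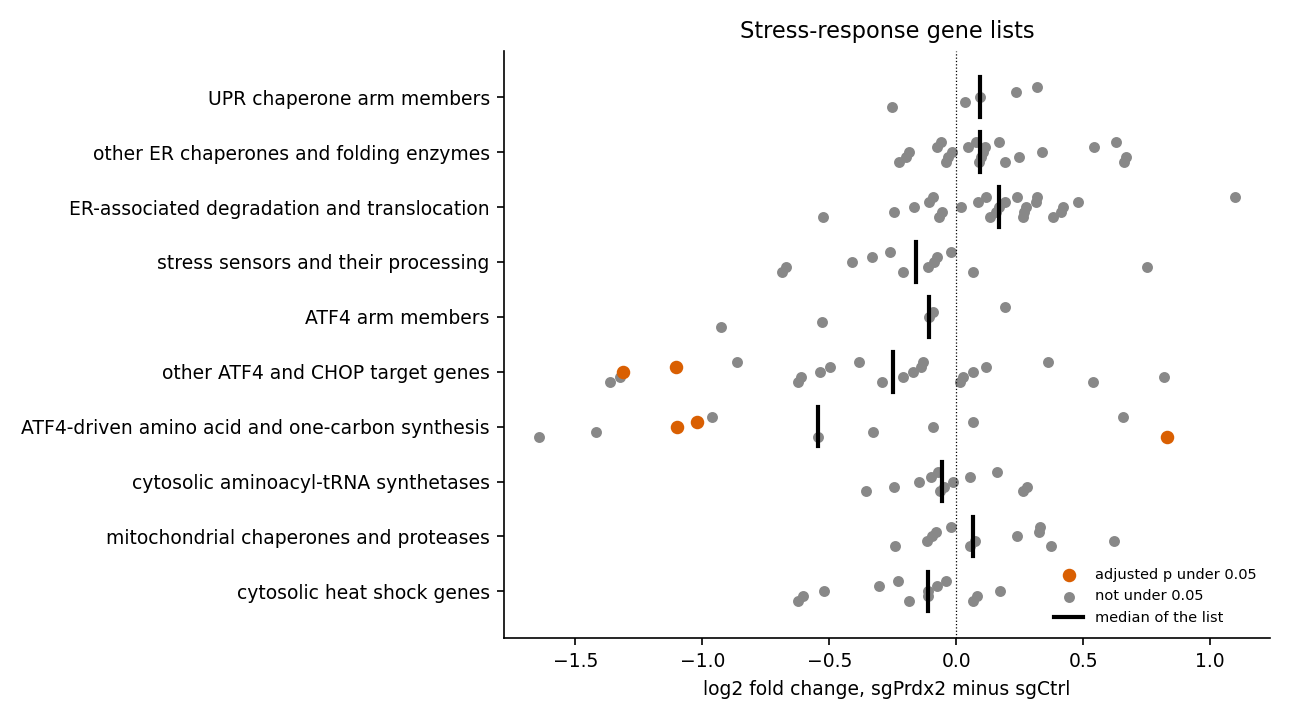
Log2 fold change (sgPrdx2 minus sgCtrl) of every tested gene in 10 lists of stress-response genes, with the median of each list as a black bar. Genes with an adjusted p under 0.05 (orange) are found in the 2 lists of further ATF4 targets, 4 on the left and 1 on the right.

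Genes with ERSE or CARE in the promoter were called at shares near that of all genes. Of 37 genes with ERSE, 20 were tested, with a median log2 fold change of 0.03 and 1 called (5.00%, against 3.33%). Of 1219 genes with CARE, 351 were tested, with a median of -0.09 and 10 called (2.85%). ERSE-II had 8 tested genes with a median of 0.06 and 1 called, and the XBP1 and ATF6 core 122 with a median of -0.03 and 2 called.

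Across the 6 livers the profile of Hspa5 was most like those of Gm13889, AC160029.2 and Leo1, with root mean square differences of 0.105, 0.115 and 0.119 between centred log2 CPM values. Leo1, part of the PAF1 elongation complex, was at 9.91, 18.5 and 19.9 CPM in sgCtrl and at 14.1, 14.7 and 16.0 CPM in sgPrdx2 livers. The profile of Asns was most like those of Akr1c18, an aldo-keto reductase gene (0.380), the metallothionein gene Mt1 (0.569) and Fgf21 (0.582). Fgf21, a hormone of the liver that ATF4 is known to induce, was at 82.0, 44.2 and 98.3 CPM in sgCtrl and at 9.98, 38.4 and 41.3 CPM in sgPrdx2 livers, and its log2 fold change was -1.32 (SE 0.51, adjusted p = 0.161). Like Asns, it was lowest in liver sgPrdx2 1.1.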

How the data were processed

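RNA of 6 livers was sequenced, 3 per group as the labels give it. The authors deposited counts of reads per gene, as whole numbers without normalization. The submitters' processing notes name HISAT2, HTSeq, DESeq2 and GRCm38. Annotation and strandedness are not given in the sources used here, so reads of overlapping antisense genes may be mixed. A further table holds the authors' comparison of the groups (mean signal, log2 fold changes, p-values) and was not used.

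The tests were run with edgeR 4.0.16 (R 4.3.3). Genes kept by filterByExpr (minimum count 10) were normalized by TMM and compared by the quasi-likelihood test (glmQLFit, glmQLFTest) without covariates, since no batch or litter is given. Adjusted p is Benjamini-Hochberg over 17032 genes, called under 0.05. The fits were tested on simulated data. Mean log2 levels used a pseudocount of 0.5 CPM, and profiles were compared where the mean reached 1 CPM. Lengths and shared stretches of 50 bases came from GENCODE M21 and promoters from RefSeq, neither of which need match the authors' annotation. Intervals from fits cover the spread between livers, and the floor of 3 counts covers counting error only. Alternatives were RLE, upper-quartile, total-count and housekeeping scaling, DESeq2 1.42.0, dropping the filter, requiring 10 counts in each of the livers, leaving out each liver, a pseudocount of 1, the median over members, and, added after seeing the data, a spline correction for length and GC content. Members and lists were chosen with earlier results of these data known. Named genes were the members, Prdx2, 3 sensors, per list every called gene (at most 6) and the 2 higher and 2 lower genes with the smallest p, per marker list the 2 most abundant and the 2 with the smallest p, and the 3 profiles most like Hspa5 and Asns. Genes outside this rule are named as such.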

Additional observations from a re-analysis of the deposited data

How the results depend on the processing

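No member was called under any of the 14 alternatives, with at most 3 of 10 at an unadjusted p under 0.05. Scaling by total counts or by housekeeping genes moved the median of all genes by -0.37, and log2 fold changes are given relative to that shift. Without taking it off, Xbp1 (-0.06, -0.07), Dnajb9 (-0.33, -0.32), Herpud1 (-0.14, -0.14), Calr (-0.28, -0.27) and Chac1 (-0.12, -0.09) fell below 0 and 6.34% and 7.09% of calls were higher, against 53.8%. All genes called, 567 in the report, were 3247 with total counts, 1637 with housekeeping scaling, 2048 with DESeq2, 1128 without a filter, 1063 after the length and GC correction, and 0 to 619 with 1 liver left out. ATF4 target genes called lower, 4 in the report, were 13, 10, 8 and 7 in the first 4 of these, and 0 to 2 with 1 liver left out. In the same first 4 settings all genes called lower, 262 in the report, were 3041, 1521, 886 and 484. Calls, unlike log2 fold changes, were not taken relative to the shift of the median. The difference between the arms stayed above 0, from 0.11 to 0.87. Prdx2 turned sign with upper-quartile factors (-0.0046), total counts (-0.0047), housekeeping scaling (-0.0081), no filter (-0.0050) and the length and GC correction (-0.12). Under that correction Hspb8 (-0.040), Hnrnpa2b1 (0.040) and Leo1 (0.017) turned as well. The cause was not tested.

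With 1 liver left out in turn, log2 fold changes that crossed 0 ranged from -0.51 to 0.040 for Hspa5, -0.064 to 0.13 for Dnajb9, -0.11 to 0.25 for Calr, -0.28 to 0.057 for Atf4, -0.99 to 0.28 for Ddit3, -0.62 to 0.40 for Asns and -0.50 to 0.72 for Chac1. They ranged from -0.17 to 0.13 for Prdx2, -0.20 to 0.043 for Hspa9, -0.0084 to 0.15 for Hspb8, -0.14 to 0.065 for Hnrnpa2b1, -0.42 to 0.33 for AC160029.2, -0.36 to 0.072 for Leo1, -0.63 to 0.34 for Akr1c18 and -0.43 to 0.24 for Mt1. Xbp1 (0.20 to 0.43), Herpud1 (0.09 to 0.42) and Trib3 (-1.26 to -0.36) kept their sign. The livers' numbers are not shared between the groups and the labels give no pairs, so no paired analysis was run. Depth did not limit the members, which had at least 70 counts in each liver, whereas the spread over 3 livers per group widened the intervals of Ddit3, Trib3, Asns and Chac1.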

Other observations

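Neither of 2 lists of stress responses outside the ER held an edgeR call, against 3.33% of all genes tested. Of 12 genes for mitochondrial chaperones and proteases, which ATF4 and its relative ATF5 are known to serve, 0 were called by edgeR or DESeq2. At an unadjusted p under 0.05, 3 were higher, where 13.0% of all genes tested were. Their median log2 fold change was 0.06. Clpp, a matrix protease, was at 38.8, 38.4 and 46.2 CPM in sgCtrl and at 50.1, 51.1 and 88.8 CPM in sgPrdx2 livers (log2 fold change 0.62, SE 0.23, edgeR adjusted p = 0.156), with liver 3.2 far above the rest. Trap1, the mitochondrial HSP90, was at 145, 166 and 165 CPM and at 216, 179 and 222 CPM (log2 fold change 0.37, SE 0.14). Neither gene's groups overlapped. Lonp1 and Hspa9, the main matrix protease and the mitochondrial HSP70, had log2 fold changes of -0.24 (SE 0.22) and -0.12 (SE 0.17).

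Of 13 cytosolic heat shock genes 0 were called by edgeR, and 2 were lower at an unadjusted p under 0.05 (11.9% of all genes tested were). DESeq2 called 2 lower, where it called 5.78% of its genes lower. The median log2 fold change was -0.11. Hsph1, an exchange factor of HSP70, was at 33.9, 29.0 and 36.8 CPM in sgCtrl and at 18.8, 23.4 and 23.4 CPM in sgPrdx2 livers (log2 fold change -0.60, SE 0.15, adjusted p = 0.0625 by edgeR and 0.0104 by DESeq2). Hsp90aa1, the inducible cytosolic HSP90, was at 50.3, 53.8 and 66.8 CPM and at 39.9, 40.5 and 30.5 CPM (log2 fold change -0.62, SE 0.17, adjusted p = 0.0772 by edgeR and 0.0183 by DESeq2). In both, every sgPrdx2 liver was below every sgCtrl liver. Dnaja1 and Hspb8 had log2 fold changes of 0.17 (SE 0.13) and 0.07 (SE 0.14).

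The 6 housekeeping genes used for scaling had a median log2 fold change of 0.43 under TMM, with 0 called by edgeR, 3 at an unadjusted p under 0.05 and 3 called higher by DESeq2. Over all genes tested 13.0% were higher at that unadjusted threshold, and DESeq2 called 7.58% of its genes higher. Ndufa2 and Cox8a, of the respiratory chain, were highest (0.68 and 0.65), and Hnrnpa2b1 lowest (-0.07). Of the plasma and B cell markers, 7 of 9 tested were above 0 and 0 were called by edgeR, with 2 at an unadjusted p under 0.05 and 1 called by DESeq2 (Igkc, log2 fold change 0.93), while Tnfrsf17 was too low to be tested.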
